A study of Arabidopsis thaliana with 26 samples.

Results

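BAT1 (AT4G31910) is an Arabidopsis gene for an acyltransferase of the BAHD family that acts on brassinosteroids, the steroid hormones of plants. It is represented by 1 of the 22746 probe sets tested on the ATH1 array, a short-oligonucleotide expression array. The probe set was chosen by its KNO3 against KCl values, as its signal was lower with KNO3 than with KCl at 6 min and higher with KNO3 at later times. The values behind that choice, and those of each salt against time 0, which hold them in part, are therefore described here without a test. The mean of both salts was tested, as its error is independent of that of the difference between them. It uses the same treated arrays, so where only 1 salt moved it holds part of that difference.

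Brassinosteroids promote cell elongation and division, and in roots they help to set the size of the meristem and the growth of hairs and vascular tissue. They are bound outside the cell by receptor kinases of the BRI1 family, which act through transcription factors of the BES1 and BZR1 type. A plant lowers its active hormone by oxidising, glycosylating or acylating it, and overexpression of BAT1 gives dwarf plants with less active hormone. BAHD enzymes transfer an acyl group from coenzyme A to an acceptor, and other members of the family make lignin precursors, cuticular waxes, volatile esters and phenolic conjugates.

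Roots of 14-day-old plants of ecotype Columbia were profiled on 26 arrays. The plants had been grown in hydroponics with ammonium succinate and without nitrate, and were kept on nitrogen-free medium for the last day. They were then placed in the same medium with 1 mM KNO3 or, as mock treatment, 1 mM KCl, so that both groups received potassium and a change of medium. KNO3 and KCl roots were each taken every 3 min up to 15 min and once more at 20 min, with 2 arrays per salt and time, and 2 arrays at time 0 came from untreated roots harvested just before. The arrays of a group come from biological replicates, as the paper states. In whole roots, a lower number of cells that express a gene and a lower level per cell cannot be told apart.

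All arrays had been scaled to 1 level, since the mean signal trimmed by 2% at each end was 500 on every array. The 8 arrays at 3 and 6 min stood apart from the other 18. Their replicates correlated at a median r of 0.928 over all probe sets against 0.962 on the other 18, their spike-in controls read 11.91 to 12.78 on the log2 scale against 9.345 to 10.59, and their median signals were 220.8 to 285.2 against 207.9 to 227.5. At 3 and 6 min any difference from time 0 therefore cannot be told apart from this difference between sets of arrays. KNO3 and KCl arrays of the same time belong to the same set. The root hair expansins EXPA7 and EXPA18, which loosen cell walls as hairs grow, were measured on every array, with signals of 516 to 1324 and of 462 to 1385. They were the only 2 of 15 root markers with a named probe set. Of 12 leaf markers 2 were measured: RCA, the activase of the carbon-fixing enzyme, had a median of 231 over the arrays, and SBPASE, an enzyme of the Calvin cycle, 104. Both were highest on replicate 1 of KNO3 at 15 min, at 1582 for RCA and 705 for SBPASE.

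BAT1 was measured on every array, with signals of 1198 to 4566. With KNO3 the signal was below time 0 at 3 and 6 min and above it from 9 to 20 min, with higher means at each later time. With KCl it went below, above, below and above time 0 at 3, 6, 9 and 12 min, and the arrays overlapped those of time 0 at 15 and 20 min. At 20 min the signal with KNO3 was 2.27 times that with KCl and 2.3 times that at time 0 (ratios of means of log2 signal, as for all ratios here).

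The 2 arrays at time 0 read 1901 and 1963. At 3 min they were 1394 and 1691 with KNO3, against 1411 and 1237 with KCl. Both salts were below time 0 at this time, and the arrays of the salts overlapped.

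At 6 min the KNO3 arrays read 1304 and 1279, against 2096 and 1971 with KCl. The KNO3 arrays were the lower pair and the KCl arrays lay just above those of time 0. At 9 min the order was turned, with 2264 and 2128 in KNO3 roots, against 1474 and 1198 in KCl roots. Here KNO3 roots were slightly above time 0, while KCl roots were below it by more than that.

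At 12 min the signals were 2998 and 2459 with KNO3 and 2258 and 2326 with KCl, so that both salts were above time 0 and the lower KNO3 array was close to the higher KCl array. At 15 min they were 2911 and 3313 with KNO3 and 1947 and 1661 with KCl. At 20 min the KNO3 arrays read 4310.3 and 4566, against 2032 and 1887 with KCl. At both of the last times the KNO3 arrays stood well above all arrays of KCl and time 0, and the KCl arrays overlapped those of time 0.

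**Figure D1:**
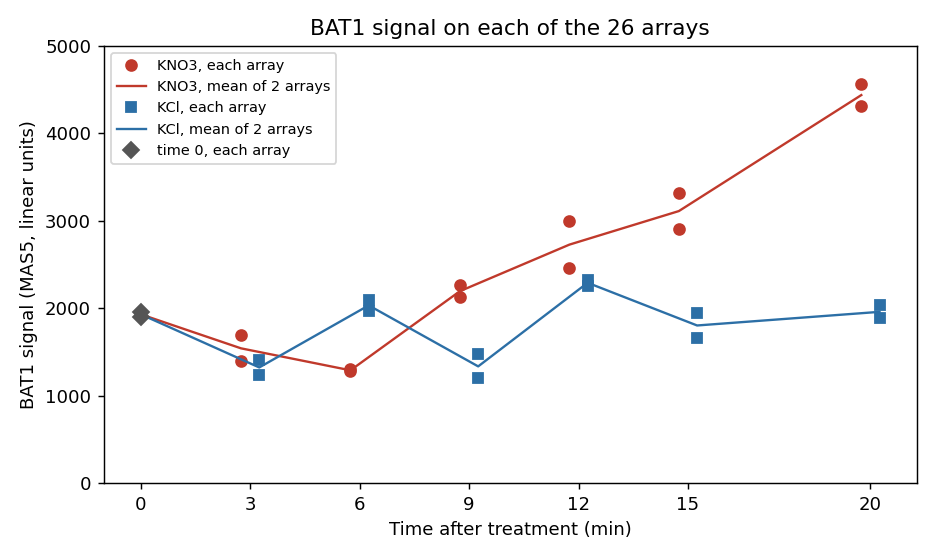
BAT1 signal (linear MAS5 units, vertical axis) on each of the 26 arrays against time after treatment in minutes (horizontal axis). Circles are KNO3 arrays, squares KCl arrays and diamonds time 0 arrays, and lines join the means of 2 arrays. KNO3 lies below KCl at 6 min and reaches 4310.3 and 4566 at 20 min, against 2032 and 1887 with KCl.

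The group means (± SD, n = 2 each) put these values in order. The KNO3 means were 1542 ± 210.2, 1291 ± 17.5, 2196 ± 96.0, 2728 ± 381, 3112 ± 284 and 4438 ± 181 in order of time. The KCl means were 1324 ± 124, 2034 ± 88.1, 1336 ± 195, 2292 ± 47.4, 1804 ± 202 and 1959.7 ± 103 in the same order, and the time 0 mean was 1932 ± 44.2. Of these means, the highest KNO3 mean was 3.44 times the lowest and the highest KCl mean 1.73 times the lowest.

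The highest mean was that of KNO3 at 20 min, followed by KNO3 at 15 and 12 min, KCl at 12 min, KNO3 at 9 min, KCl at 6 and 20 min, time 0, KCl at 15 min, KNO3 at 3 min, KCl at 9 and 3 min and KNO3 at 6 min. For 9 of these 12 neighbouring pairs the arrays overlapped. Only KNO3 at 20, 12 and 9 min had both arrays above those of the next group down. The 2 arrays of a group differed by 0.03 to 0.30 on the log2 scale, with a median of 0.11. The residual SD of BAT1 in the model of all groups was 0.13 on the log2 scale, and 95.85% of probe sets had a larger one.

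Which salt stood away from time 0 differed from time to time. On the log2 scale KNO3 minus time 0 was -0.33, -0.58, 0.18, 0.49, 0.68 and 1.2 in order of time. KCl minus time 0 was -0.55, 0.07, -0.54, 0.25, -0.10 and 0.02, and each of these values has a standard error of 0.13. Both sets of values rest on the same 2 time 0 arrays. At 6 min the KCl value depended on the scaling, as it was 0.27 with quantile normalization. On the deposited scale the distance from time 0 at 6 min lay in KNO3, on the arrays that stand apart. With quantile normalization KNO3 was at -0.42 at that time, so that both salts stood away from time 0, on opposite sides. At 9 min the distance lay mostly in KCl, and at 15 and 20 min in KNO3. At 3 and 12 min both salts stood on the same side of time 0.

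The KNO3 arrays did not overlap those of time 0 at any of the 6 times. They were lower at 3 and 6 min, as in 24.8% and 24.6% of all probe sets, and higher at 9, 12, 15 and 20 min, as in 19.6%, 22.9%, 25% and 19.7%. The KCl arrays were lower than time 0 at 3 and 9 min (25.9% and 18.3% of all probe sets) and higher at 6 and 12 min (47.6% and 24.4%). With 2 arrays a group such separation is common, and nothing is read from it here. The array with the high leaf markers, replicate 1 of KNO3 at 15 min, held the lower BAT1 signal of its pair, and KNO3 minus time 0 was 0.78 without it. Replicate 2 of KNO3 at 12 min, with RCA at 726 and SBPASE at 218, was likewise the lower of its pair, and KNO3 minus time 0 was 0.63 without it.

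KNO3 minus KCl on the log2 scale (standard error 0.13 each) was 0.22, -0.65, 0.72, 0.24, 0.79 and 1.18 in order of time. These are ratios of 1.16, 0.635, 1.65, 1.18, 1.73 and 2.27. At 3 min the arrays of the salts overlapped, as in all but the 15.6% of probe sets that were higher and the 19.4% that were lower with KNO3. They did not overlap at the other 5 times: KNO3 was lower at 6 min, as in 20.9% of all probe sets, and higher at 9, 12, 15 and 20 min, as in 19.3%, 20.9%, 20.2% and 16.8%. The values at 3 and 12 min each rest on 1 array. Leaving out replicate 2 or replicate 1 of KNO3 at 3 min gave 0.08 or 0.36, and leaving out replicate 1 or replicate 2 of KNO3 at 12 min gave 0.10 or 0.39. At the other times the difference kept its sign and most of its size when any 1 array was left out, with a range of -0.70 to -0.61 at 6 min and one of 1.13 to 1.23 at 20 min. Among cell type markers, the measured root hair markers also differed between the salts at some of these times. At 9 min EXPA7 read 722 and 808 with KNO3, against 516 and 549 with KCl, and EXPA18 926 and 995 with KNO3, against 627 and 728 with KCl. At 20 min EXPA7 read 546 and 780.5 with KNO3, against 1057 and 926 with KCl, and EXPA18 687 and 1009 with KNO3, against 1289 and 1139 with KCl. Both were thus above KCl at 9 min, as BAT1 was, and below it at 20 min, opposite to BAT1. At 6 min EXPA7 read 1188 and 1324 with KNO3, against 884 and 787 with KCl, opposite to BAT1, while the EXPA18 arrays overlapped. At 15 min EXPA7 read 763 and 838 with KNO3, against 659 and 653 with KCl, the same way as BAT1, while the EXPA18 arrays overlapped. In KCl roots the EXPA7 means were 533, 894, 656 and 992 from 9 min on, and the EXPA18 means 677, 970, 853 and 1214. Both went up and down in the same turns as BAT1. Before that, at 3 and 6 min, the means were 992 and 836 for EXPA7 and 642 and 639 for EXPA18, neither going up as BAT1 did. The part of these markers in the BAT1 values was not tested.

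**Figure D2:**
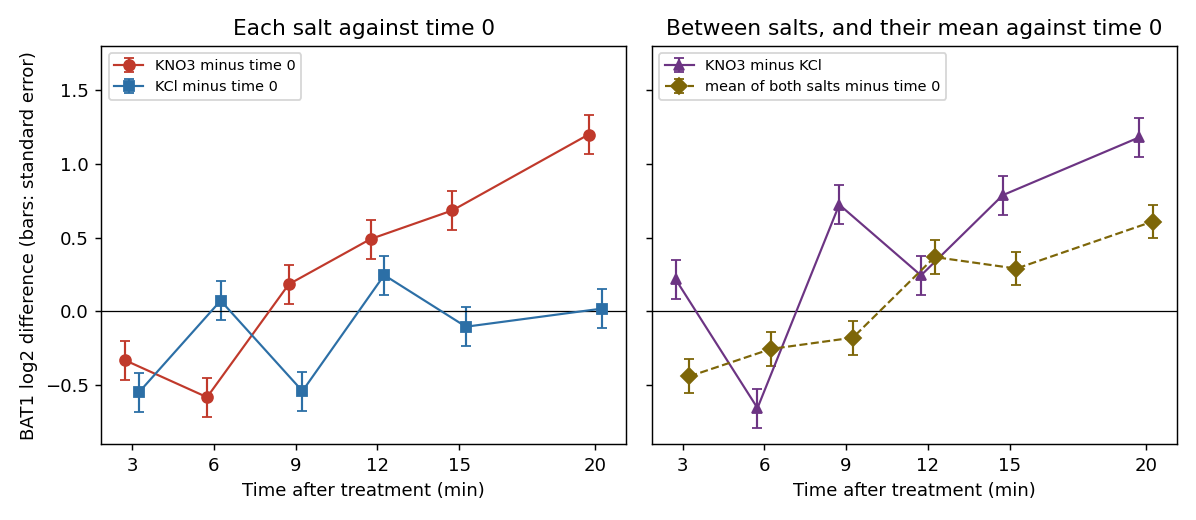
Log2 differences in BAT1 signal (vertical axis, bars are the standard error from the model of all groups) against time after treatment in minutes. The left panel gives KNO3 (circles) and KCl (squares) minus time 0, and the right panel KNO3 minus KCl (triangles) and the mean of both salts minus time 0 (diamonds). KNO3 minus KCl is -0.65 at 6 min and 1.18 at 20 min, while the mean of both salts is -0.44 at 3 min and 0.61 at 20 min.

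The mean of both salts is the average of the KNO3 and KCl arms, which need not be alike. On this mean BAT1 was lower than time 0 at 3 min, by a log2 difference of -0.44 ± 0.11 (SE, n = 4 treated arrays and 2 at time 0, adjusted p = 0.00538 in limma), and higher at 20 min, by 0.61 ± 0.11 (adjusted p = 0.00727). At 3 min 38.4% of all probe sets passed this test and 15.3% were lower, while at 20 min 0.813% passed and 0.594% were higher. At 3 min both salts were below time 0, while at 20 min the KCl arrays overlapped time 0 (0.02) and the difference lay in KNO3 (1.2). The call at 20 min is therefore not separate from the KNO3 values by which the gene was chosen. The median of all probe sets was higher than at time 0 by 0.19 at 3 min and by 0.27 at 6 min.

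Between these times the mean of both salts did not pass the test against time 0. The mean of both salts minus time 0 was -0.25 at 6 min (adjusted p = 0.0762 in limma), -0.18 at 9 min (adjusted p = 1), 0.37 at 12 min (adjusted p = 0.210) and 0.29 at 15 min (adjusted p = 0.308), each with a standard error of 0.11. With quantile normalization the value at 6 min was -0.07 (adjusted p = 0.642). Of all probe sets 44.7%, 0.637%, 0.514% and 1.17% passed at these times. The calls at 3 and 20 min rest on the time 0 arrays. Without replicate 2 of time 0 the adjusted p was 0.0544 at 3 min and 0.101 at 20 min, and without replicate 1 it was 0.173 at 20 min.

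Among the arrays from 9 min on, the mean of both salts in BAT1 was higher later. Spike-in controls of these arrays were not all alike, at 9.97 to 10.59 at 12 and 15 min, against 9.35 to 9.86 at 9 and 20 min. The part of this difference in the steps between times was not tested. It was higher at 12 than at 9 min by 0.55 ± 0.09 on the log2 scale (SE, n = 4 arrays each, adjusted p = 0.00582 in limma), where 1.26% of all probe sets passed, 0.607% higher and 0.651% lower. It was higher at 20 than at 9 min by 0.79 ± 0.09 (adjusted p = 0.000141), where 0.87% passed and 0.382% were higher. The step between 12 and 15 min was -0.08 (adjusted p = 0.9, with 0.0484% of probe sets passed, 0.044% higher and 0.0044% lower) and that between 15 and 20 min 0.32 (adjusted p = 0.0972, 1.37% passed), each with a standard error of 0.09. Between 9 and 12 min the means of KNO3 and KCl were both higher at the later time, by 0.31 and 0.79, and between 15 and 20 min by 0.51 and 0.12. The step from 9 to 12 min thus lay mostly in KCl, which was low at 9 min. That from 9 to 20 min holds the same low KCl value and the high KNO3 value at 20 min. Neither call is therefore separate from the values by which the gene was chosen.

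Few probe sets shared the shape by which BAT1 was chosen. KNO3 arrays lay above KCl arrays at all of 9, 12, 15 and 20 min in 172 probe sets (0.756% of all). At 6 min KNO3 was above KCl in 77 of these, overlapped in 80 and was below in 15, which is 0.0659% of all probe sets, BAT1 included. The KCl means went down and up in turn at every step from time 0 to 20 min, as in BAT1, in 904 probe sets (3.97%). The KNO3 means went up at every step from 6 to 20 min, as in BAT1, in 149 (0.655%), and 14 (0.0615%) did both.

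Of the other 14 probe sets with the crossing, 7 are named: AT5G62900, AT5G39590, AT4G37550, AT4G36010, AT1G73920, ATSBT5.2 and AT2G22200. Their KNO3 minus KCl at 6 min lay between -0.56 for AT5G39590 and -0.12 for AT1G73920, beside -0.65 for BAT1. The probe sets without a name lay between -1.69 and -0.39, so BAT1 was not the lowest with this crossing. AT5G39590, with the lowest value of the 7, resembled BAT1 in KCl at 6 and 9 min, the former on arrays that stand apart. Its KCl means were 752 at 3 min, near the 778 of time 0, and 836, 835 and 784 at 12, 15 and 20 min. BAT1 with KCl was further below time 0 at 3 min, and went down and then up from 12 to 20 min. At 6 min it read 743 and 716 with KNO3, against 1096 and 1050.5 with KCl, and at 9 min 778 and 890.1 with KNO3, against 598 and 622 with KCl. Its time 0 arrays were at 766 and 791, so that KCl roots stood above time 0 at 6 min and below it at 9 min here too. At 20 min it was at 999 and 1151 with KNO3, against 790 and 778 with KCl, a smaller gap than that of BAT1.

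Likeness was measured as Pearson's r between the means of log2 signal over the 13 groups, among 6046 probe sets with 1 gene and a mean signal at or above the median. The groups share the time 0 arrays and the scaling, and r is a description. No probe set passed 0.9, and the median r was 0.00. The 6 highest were AT2G24550 (0.892), AT4G32950 (0.881), AT1G72200 (0.877), UGT73D1 (0.872), a gene for a UDP-glycosyltransferase, which attaches a sugar to small molecules, AT4G36010 (0.871) and AT4G18340 (0.866). They followed BAT1 in the later KNO3 roots more than at 6 min. BAT1 stood furthest from its own mean with KNO3 at 20 min (1.14), so likeness there is in part set by the choice by r. KNO3 minus KCl at 20 min was 0.74, 1.22, 0.53, 1.25, 2.54 and 1.43 in this order, all above 0, as in BAT1. At 6 min it was 0.25, 0.09, 0.12, 0.10, -0.21 and 0.10, so that only AT4G36010 was below 0 among the 6, and by less than BAT1.

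AT2G24550 illustrates this. Its arrays read 1204 and 1449.8 at time 0. At 6 min it gave 1231 and 1574 with KNO3 and 1155 and 1191 with KCl, a log2 difference of 0.25, on the other side of 0 from BAT1. At 9 min it was at 1754 and 1901 with KNO3, against 1127 and 972 with KCl, and at 20 min at 3259 and 3381 with KNO3, against 2095 and 1882 with KCl. The KNO3 arrays were above the KCl arrays at both of these times, as in BAT1. Unlike BAT1, the KCl arrays at 20 min lay above those of time 0.

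Over the 9 groups without 3 and 6 min, 14 probe sets passed an r of 0.9. The 6 highest were AT4G05070 (0.95), AT5G54660 (0.947), AT4G32950 (0.929), AT2G24550 (0.928), AT5G39590 (0.92) and AT1G72200 (0.916). AT4G05070 and AT5G54660 had an r of 0.338 and 0.164 over all 13 groups. Their mean signals at 6 min were 590 and 436 with KNO3 and 584 and 391.7 with KCl, against 275 and 180 at time 0. BAT1 was below or near time 0 at 6 min. The arrays of 6 min stand apart, and on them the median of all probe sets was 0.27 above time 0.

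**Figure D3:**
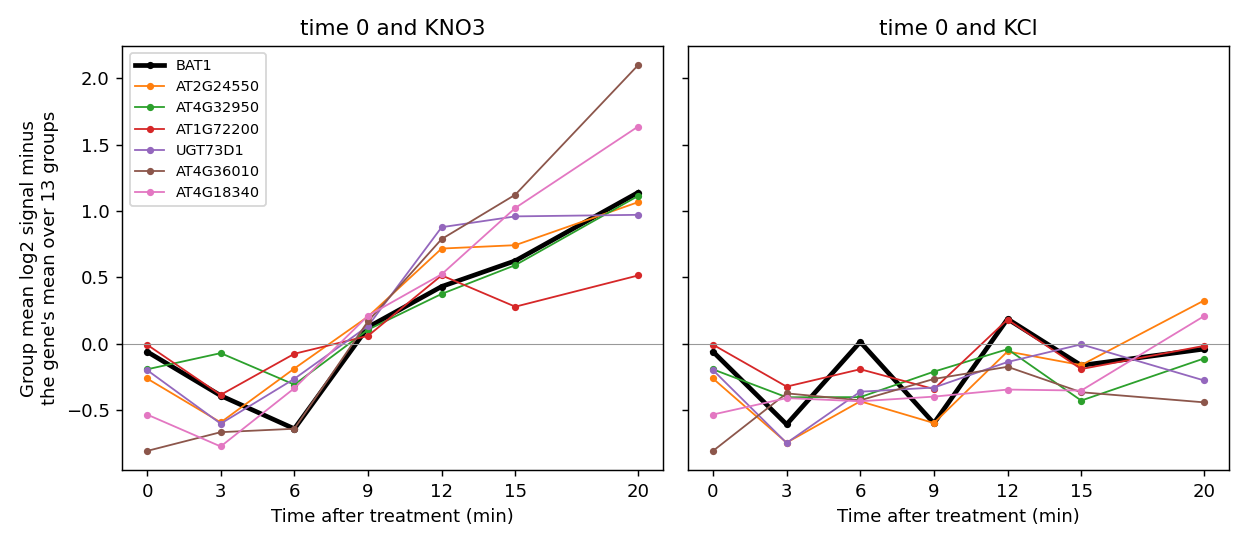
Group means of log2 signal less the mean of each gene over the 13 groups (vertical axis) against time in minutes, for BAT1 (thick line) and the 6 genes most like it, with KNO3 in the left panel, KCl in the right and time 0 in both. BAT1 stands at 1.14 with KNO3 at 20 min, against -0.04 with KCl, and BAT1 is the only line above 0 with KCl at 6 min.

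Most other genes of the brassinosteroid pathway had no named probe set here. None of 13 biosynthesis genes was measured, and of 7 genes for inactivation BAT1 alone was. The perception and signalling list gave 2 of 25, the receptor kinase BRL1 and BIM1, a transcription factor that partners with BES1. The responsive list gave 1 of 10, EXPA8, an expansin. Between the salts none of these 3 passed the test except EXPA8 at 15 min.

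BRL1, a receptor of the BRI1 family in vascular cells, did not pass in any comparison with limma. For 1 of them, the mean of both salts minus time 0 at 3 min (-0.57), the unadjusted p was under 0.05. The same held there for 48% of all probe sets. At 6 min, where BAT1 was low with KNO3, BRL1 read 121 and 111 with KNO3, against 118 and 168 with KCl, and time 0 was at 180 and 159. At 20 min it read 172 and 214 with KNO3, against 168 and 186 with KCl. The arrays of the salts overlapped at both times.

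BIM1 was lower than time 0 in both salts at 3 min. Its arrays read 274 and 269.6 with KNO3 and 342 and 185 with KCl, against 508 and 454 at time 0. The mean of both salts minus time 0 was -0.88 ± 0.19 at 3 min (SE, adjusted p = 0.00173 in limma) and -0.56 ± 0.19 at 6 min (adjusted p = 0.0253), while from 9 min on it did not pass. Of all probe sets 15.3% at 3 min and 15% at 6 min were called lower in this comparison. BAT1 and BIM1 were thus both below time 0 at 3 min, on arrays that stand apart, as were many other probe sets. The call at 6 min was lost without either time 0 array, with an adjusted p of up to 0.173, or without replicate 2 of KNO3.

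EXPA8 was dim, with signals of 8.92 to 88.7. At 15 min it read 15.7 and 8.92 with KNO3, against 79.1 and 79.4 with KCl, and 76.7 and 88.7 at time 0. The difference between the salts was -2.74 ± 0.64 (SE, adjusted p = 0.0373 in limma), where 1.2% of all probe sets passed and 0.475% were lower. At 20 min both salts were low, at 19.9 and 47.2 with KNO3 and 10.9 and 20.1 with KCl. The call was lost without any 1 of the 4 arrays at 15 min, with an adjusted p of 0.0892 to 0.238.

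The BAHD family was better covered, with 40 of 50 listed genes measured by 41 probe sets, BAT1 among them. Between the salts few of the other 40 passed the test. At 3 min 2 were higher and 0 lower with KNO3 (1.39% and 0.888% of all probe sets, 2.28% together), at 6 min 1 was higher and 0 lower (0.277% and 0.136%), and at 15 and 20 min 1 was higher and 1 lower at each (0.721% and 0.475%, 0.659% and 0.0835%). At 9 and 12 min limma called 0 of the 40, and 0.396% and 0.69% of all probe sets. An unadjusted p under 0.05 was found for 7 and 4 of the 40 at these times, and for 6.99% and 11.8% of all probe sets. The median difference of the 40 was between -0.13 and 0.15 over the 6 times, beside -0.06 to 0.01 for all probe sets. The shares of all probe sets called depend on single arrays too. Between the salts 518 probe sets were called at 3 min, but 274 without replicate 2 of KNO3 and 1578 without replicate 1 of KCl. At the later times, in order, the number with 1 array left out was 117 to 384, 8 to 61, 36 to 624, 85 to 480 and 78 to 84, against 94, 90, 157, 272 and 169 with all arrays.

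AT5G42830 was the one family member called between the salts at more than 1 time. At 6 min it read 1271 and 1855 with KNO3, against 748 and 869.8 with KCl, and 719 and 824 at time 0. At 20 min it read 1754 and 1969.9 with KNO3, against 1208 and 1085 with KCl. At both times KNO3 arrays were above KCl arrays, so at 6 min this gene stood the opposite way to BAT1 and at 20 min the same way. KNO3 minus KCl was 0.93 ± 0.14 at 6 min (SE, adjusted p = 0.00275 in limma), 0.80 ± 0.14 at 15 min (adjusted p = 0.00491) and 0.70 ± 0.14 at 20 min (adjusted p = 0.0177).

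Some of these calls rested on single arrays. The call at 6 min had an adjusted p of 0.428 when the arrays of 3 and 6 min were fitted apart from the others. That at 15 min was lost without replicate 1 of KNO3 (adjusted p = 0.0924) or replicate 2 of KCl (0.0712), and that at 20 min without any 1 of the 4 arrays at 20 min (0.0827 to 0.281).

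The other calls were single ones. AT5G07870 (signals of 15.0 to 335) was higher with KNO3 at 3 min by 2.55 (adjusted p = 0.00313 in limma), and AT1G27620 (38.6 to 270.6) by 1.33 (adjusted p = 0.0393). AT1G24430 was lower with KNO3 at 15 min by a difference of -0.80 (adjusted p = 0.0178), and AT5G01210 at 20 min by -1.35 (adjusted p = 0.0108). All of these but AT5G07870 lost the call when 1 of several arrays was left out, with an adjusted p of up to 0.376 for AT1G27620, 0.410 for AT1G24430 and 0.242 for AT5G01210. The call of AT5G07870 had an adjusted p of 0.336 with the arrays of 3 and 6 min fitted apart.

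**Figure D4:**
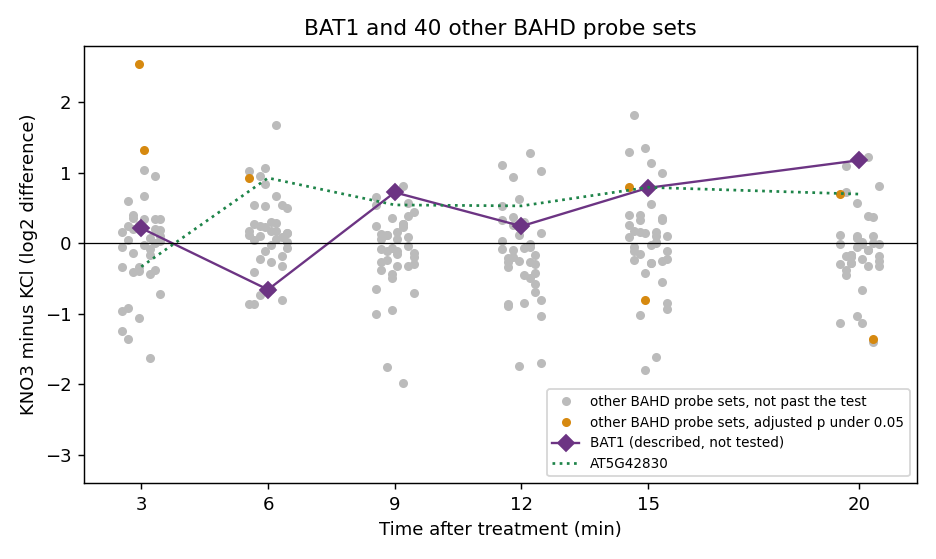
KNO3 minus KCl as log2 difference (vertical axis) for the 40 other BAHD probe sets (points, coloured where the adjusted p was under 0.05) and BAT1 (diamonds, not tested) against time after treatment in minutes, with points spread sideways for view. The dotted line joins the values of AT5G42830, which is at 0.93 at 6 min, where BAT1 is at -0.65.

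Against time 0, the mean of both salts was higher in 15 and lower in 4 of the 40 BAHD probe sets at 3 min, and higher in 17 and lower in 3 at 6 min, where 23.2% and 15.3% (3 min) and 29.7% and 15% (6 min) of all probe sets were. Their median was 0.49 at 3 min and 0.56 at 6 min, beside 0.19 and 0.27 over all probe sets, on the arrays that stand apart. At 3 min they ran between -2.88 for AT2G39980 and 3.46 for SDT, which makes spermidine conjugates, both with dim signals and named for these extremes. BAT1 was below time 0 at 3 min, and at 6 min its mean over both salts was at -0.25 without passing the test. From 9 min on AT5G42830 alone was called among the 40, and it was higher at each time, by 0.85, 0.68, 0.92 and 0.92 at 9, 12, 15 and 20 min (adjusted p = 0.000783, 0.00999, 0.00043 and 0.000236 in limma). Of all probe sets 0.576%, 0.413%, 0.914% and 0.594% were higher at these times. At 20 min BAT1 and AT5G42830 were therefore both above time 0 in the mean of both salts. For AT5G42830 the calls at 15 and 20 min held when any 1 array was left out, while those at 9 and 12 min were lost without replicate 1 of time 0 (adjusted p = 0.0695 and 0.259). The call at 12 min was also lost without replicate 2 of time 0 (0.054) or replicate 1 of KCl (0.0519).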

How the data were processed

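Roots were measured on 26 ATH1 arrays in 13 groups of 2. The authors deposited MAS5 signal intensity on a linear scale, 1 value per probe set and array. Their methods state a target median of 150, whereas the deposited signals had a trimmed mean of 500 throughout, which is a different scale. Software versions beyond MAS5 are not given in the sources used here. The number of arrays limits the precision, and no detection calls were used.

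The 22810 probe sets were reduced to 22746 without 64 control probe sets, and 1517 signals were below 1. limma 3.58.1 in R 4.3.3 fitted log2 signal in a single model of all 13 groups, its variances moderated by eBayes along an intensity trend (13 residual and 7.41 prior degrees of freedom). Tests were two-sided, with a Benjamini-Hochberg adjusted p under 0.05 over all probe sets within each comparison. KNO3 minus KCl and the mean of both salts minus time 0 were fitted at each time, and the mean of both salts between later times. The model was tested on simulated data with known answers.

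A single gene was annotated to 13513 probe sets, more than 1 to 503 and no gene to 8730. Of the first, 13436 were found by locus tag in the gene list of assembly TAIR10.1, where 2 genes carry the name BAT1, and AT4G31910 was matched by its locus. The genes named are BAT1, all measured brassinosteroid list genes, BAHD genes past the threshold between the salts or from 9 min on, and the 6 most like BAT1. AT2G39980, SDT, genes with the crossing and those near BAT1 on the chromosome were named after their values were seen. The gene, the lists and the tests were chosen with earlier results of these data known. No sequence or promoter was analysed here. The alternatives tried were no trend, a filter on dim probe sets (mean signal below the 40th percentile), 32 added to each signal, quantile-normalized signals, the replicate number as a block, the arrays of 3 and 6 min fitted apart, and each array left out.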

Additional observations from a re-analysis of the deposited data

Results flagged for a closer look

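The difference between KNO3 and KCl in BAT1 had opposite signs at 6 min and later, with every KNO3 array below both KCl arrays at 6 min and above both at every time from 9 min on. On the log2 scale KNO3 minus KCl was larger than at 6 min by 1.38, 0.90, 1.44 and 1.83 at the 4 later times in order. These values were part of the choice of the gene, and the difference between times was not tested. The arrays of 6 min belong to the set that stands apart, with spike-in controls at 11.91 to 12.78 on the log2 scale against 9.345 to 10.59, and both salts at 6 min lie within that set. Its part in the change of sign was not tested.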

How the results depend on the processing

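The sign of KNO3 minus KCl in BAT1 held at all 6 times under all alternatives, and its tested calls held under all except those that left out a time 0 array. With single arrays left out, KNO3 minus KCl had ranges of 0.077 to 0.36, -0.70 to -0.61, 0.57 to 0.87, 0.10 to 0.39, 0.67 to 0.90 and 1.13 to 1.23 in order of time. KNO3 minus time 0 was -0.47 to -0.19 at 3 min and 0.35 to 0.63 at 12 min, and KCl minus time 0 was -0.69 to -0.39 at 9 min. The mean of both salts minus time 0 was -0.51 to -0.37 at 3 min (adjusted p 0.00262 to 0.0544) and 0.58 to 0.64 at 20 min (0.0188 to 0.173). The mean of both salts at 12 minus 9 min was 0.47 to 0.62 (0.00419 to 0.0421) and at 20 minus 9 min 0.71 to 0.86 (0.000172 to 0.00246), with no call lost. A lone array is assumed to vary like the other groups.

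The cause of the shifts below was not tested. Quantile normalization gave -0.41 for KCl minus time 0 at 3 min, and -0.42 for KNO3 and 0.27 for KCl minus time 0 at 6 min. Under it the mean of both salts minus time 0 at 3 min was -0.31 (adjusted p = 0.0383). With the arrays of 3 and 6 min fitted apart these comparisons with time 0 have no value. For the counts at any time given next, the share of all probe sets called at any time was not computed. At single times 0.396% to 2.28% of all probe sets were called between the salts. For the mean of both salts minus time 0 this share was 0.514% to 44.7%, so nothing is read from the counts. The number of BAHD probe sets called between the salts at any time was 5, but 3 without the trend, 3 with quantile normalization and 3 with the arrays of 3 and 6 min apart, and 3 to 6 with single arrays left out. For the mean of both salts minus time 0 it was 24, but 12 without dim probe sets and 16 to 30 with single arrays left out. Of the other brassinosteroid genes 1 was called between the salts, but 0 without dim probe sets and 0 to 1 with arrays left out. For the mean of both salts minus time 0 it was 1, but 2 without the trend, 2 with the offset, 3 with quantile normalization and 1 to 2 with arrays left out. Of single calls, without the trend AT5G42830 at 20 min (adjusted p = 0.0785) and at 12 min against time 0 (0.0564) and AT1G24430 (0.0627) were lost, and with quantile normalization AT5G01210 (0.0551). That of AT1G27620 was lost without the trend (0.0672), with the offset (0.075), with quantile normalization (0.0582) and with the arrays of 3 and 6 min apart (0.628).

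Same-numbered arrays did not deviate together (correlation -0.08 to 0.08 over 78 pairs of groups). With the replicate block the mean of both salts minus time 0 in BAT1 was -0.44 at 3 min (adjusted p = 0.00517) and 0.61 at 20 min (adjusted p = 0.00717), and the block changed no call.

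Over all probe sets, limma called 518 between the salts at 3 min (256 without the trend, 27 with these arrays apart), 94 at 6 min (145 offset, 243 quantile, 3 apart), 90 at 9 min (14 without the trend, 157 apart), 157 at 12 min (84, 386) and 272 at 15 min (167, 453). Against time 0 it called 10166 at 6 min (6291 without dim probe sets), 145 at 9 min (66 without the trend, 88 quantile), 117 at 12 min (69, 280 apart), 267 at 15 min (136, 517) and 185 at 20 min (307 apart). Between later times it called 286 for 12 minus 9 min (120 without the trend, 123 quantile, 993 apart), 11 for 15 minus 12 min (2, 6, 41), 311 for 20 minus 15 min (82, 783 apart, 477 without dim probe sets) and 198 for 20 minus 9 min (56, 324 apart).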

Other observations

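Of the 10 protein-coding genes nearest to BAT1 on its chromosome, 5 on each side, 5 had a named probe set, while neither directly adjacent gene had one. The 5 measured were AT4G31875, AT4G31880, AT4G31890, AT4G31930 and AT4G31960. In 30 comparisons of KNO3 with KCl limma called 0 of them at an adjusted p under 0.05, and 1, in AT4G31890, had an unadjusted p under 0.05. Their log2 differences lay between -0.75 and 0.69, both in the dim AT4G31960, which had a median signal of 55.4. Their r with BAT1 over the 13 group means was between -0.662 for AT4G31930 and 0.452 for AT4G31890, given as a description.

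The number of probe sets called for the mean of both salts minus time 0 also moved when 1 array was left out. From 3 to 20 min, in order, it was 4517 to 8934, 6113 to 9951, 42 to 104, 23 to 115, 75 to 246 and 67 to 155, against 8744, 10166, 145, 117, 267 and 185 with all arrays. The lowest number came without replicate 1 of time 0 except at 15 min, where it came without replicate 2. Between later times it was 33 to 267 for 12 minus 9 min, 2 to 38 for 15 minus 12 min, 55 to 315 for 20 minus 15 min and 65 to 172 for 20 minus 9 min, against 286, 11, 311 and 198.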
